A study of Homo sapiens with 12 samples.

Results

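The retinoic acid pathway was followed through 10 genes, chosen by name as its receptors, its binding proteins and the enzymes that make and remove its ligand, out of 19923 genes counted. They were RARA, RARB, RARG and RXRA (receptors), CRABP1 and CRABP2 (binding proteins), ALDH1A2 and DHRS3 (enzymes that make retinoic acid or hold back its precursor), and CYP26A1 and CYP26B1 (enzymes of breakdown). RNA was sequenced from NGP and SK-N-BE2, established neuroblastoma lines of human origin whose labels give amplified MYCN and a wild-type genotype. STM2457, a small molecule that inhibits the RNA methyltransferase METTL3, was given at 12 µM to SK-N-BE2 and at 1 µM to NGP, and the controls of each line received DMSO. Cells of all 4 groups were collected after 6 days, with 3 replicates per group and 12 libraries in all. Both lines were kept in medium with serum, and no retinoid is named among the treatments. The labels do not say whether replicates came from separate cultures, so the p-values measure the spread between these libraries, which may be technical.

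Retinoic acid is made in steps, retinol being oxidised to retinal and retinal to retinoic acid by aldehyde dehydrogenases such as ALDH1A2. It is carried in the cytoplasm by CRABP proteins, binds RAR receptors that sit on DNA in pairs with RXR receptors, and is broken down by the CYP26 enzymes. RARB, CYP26A1, DHRS3 and CRABP2 are known as genes that retinoic acid can itself induce, so the pathway feeds back on its own signal. In neuroblastoma, retinoic acid is a classic inducer of neuronal differentiation, and isotretinoin is used in treatment.

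The promoter sequences of the members are shown because this feedback runs through them: RAR and RXR pairs bind direct repeats of a 6-base half-site. All 10 genes had an entry in the RefSeq promoter table (GRCh38.p14), with 20 annotated starts between them. The 250 bases before each start were searched on both strands for the half-site AGGTCA and its forms with G first (GGGTCA), with a T for the inner G (AGTTCA) or with both (GGTTCA), set as a direct repeat with 5 bases between (DR5) or 2 bases between (DR2). Of 35116 windows of this length in the table, 26 held a DR5 (0.074%) and 11 a DR2 (0.0313%). Among the members, 1 window of RARB and 1 of CYP26A1 held a DR5, and none held a DR2. The matches are shown with 6 bases on each side and the half-sites in capitals. The RARB stretch is chr3:25428204-25428232 on the plus strand, with its repeat 53 to 37 bases before the start. The CYP26A1 stretch is chr10:93073797-93073825 on the plus strand, with its repeat 90 to 74 bases before the start. In CYP26A1 the repeat reads on the opposite strand, so its half-sites appear as TGAACT. Both stretches lie inside exons that GENCODE 44 annotates there.
RARB: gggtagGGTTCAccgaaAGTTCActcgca
CYP26A1: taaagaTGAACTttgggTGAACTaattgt

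DHRS3 and CRABP2 held no DR5 and no DR2 in their windows, 3 of DHRS3 and 1 of CRABP2. Their counts changed in both lines, as did those of RXRA and CRABP1, whose windows also held neither repeat and are not printed. The windows of CRABP2 and of the outer DHRS3 starts are shown as far as GENCODE 44 places no exon on them. A single half-site is far more common than a repeat, standing in 33.8% of all windows and in 10 of the 20 windows of the members. The first DHRS3 stretch is chr1:12618211-12618388 on the minus strand and covers the 178 bases before the outermost start, with no half-site. The second is chr1:12616796-12617039 on the minus strand, before an inner start, with a single half-site in capitals. The CRABP2 stretch is chr1:156705817-156706034 on the minus strand, also with a single half-site in capitals. A match is a description of the letters only, and counts per gene do not show which start was used.
DHRS3 outer start: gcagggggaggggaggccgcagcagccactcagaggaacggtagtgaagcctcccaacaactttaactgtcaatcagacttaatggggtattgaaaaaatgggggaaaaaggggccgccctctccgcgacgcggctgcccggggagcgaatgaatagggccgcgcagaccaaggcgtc
DHRS3 inner start: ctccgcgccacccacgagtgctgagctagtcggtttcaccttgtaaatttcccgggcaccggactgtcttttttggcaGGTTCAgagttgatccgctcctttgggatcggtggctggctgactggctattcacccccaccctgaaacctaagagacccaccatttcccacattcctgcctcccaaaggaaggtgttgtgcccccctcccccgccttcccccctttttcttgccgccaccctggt
CRABP2: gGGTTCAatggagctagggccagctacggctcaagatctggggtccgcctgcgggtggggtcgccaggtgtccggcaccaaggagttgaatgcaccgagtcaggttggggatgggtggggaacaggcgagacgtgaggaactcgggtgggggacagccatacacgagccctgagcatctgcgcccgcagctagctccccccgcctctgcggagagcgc

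The deposited counts summed to between 47242379 and 58159937 reads per library. The headers of the counts place the libraries of each line in 1 directory, and the lines share 0 of these. Whether a directory stands for a sequencing run was not established. Dose, line and any batch that goes with the line cannot be told apart wherever the lines are compared. Replicate 1 of NGP with DMSO stood apart from its group, at a chi-square per degree of freedom of 92.6 and 60.8 against replicates 2 and 3, which were at 10.96 against each other. Its deviations from the other replicates followed exon length (Spearman's rho -0.52 across 13320 genes), and for some of the results that depend on it the outcome without it is given as well. METTL3, whose protein is the drug's target, rose in both lines (log2 fold change 0.52 in SK-N-BE2 and 0.92 in NGP, edgeR adjusted p 0.000106 and 0.000300), and MYCN was not called in either (edgeR adjusted p 0.453 and 0.995). Of 8 markers of adrenergic (sympathetic) neuroblastoma, 7 averaged at least 1 CPM in each group, and TH was under 1 CPM in NGP. The summed level of 8 mesenchymal markers ran from 173 to 213 CPM with DMSO and from 627 to 734 CPM with STM2457 in NGP. In SK-N-BE2 it ran from 1166 to 1222 CPM with DMSO and from 1205 to 1312 CPM with STM2457, a sum over markers that moved apart. There, 5 of the 7 tested markers were called by edgeR, as were 54.7% of all genes tested. FN1 (3.24-fold), COL1A1 (2.12-fold), CD44 (1.95-fold) and THY1 (1.24-fold) were higher and VIM (1.18-fold) was lower. In NGP, where 41.7% of all genes tested were called, 4 of 8 markers were, all higher: FN1 (14.8-fold), SNAI2 (4.91-fold), COL1A1 (4.10-fold) and VIM (2.99-fold). FOSL1 and CD44 averaged under 1 CPM in NGP and PRRX1 in SK-N-BE2, and the part of this shift in the results below was not tested. Markers of Schwann cell precursors (3 measured) and of leukocytes (4) summed to no more than 2.68 CPM in any library.

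In SK-N-BE2, 8 of the 10 genes had enough reads to test and 5 were called at an adjusted p under 0.05. CRABP1 rose, and RARA, RXRA, CRABP2 and DHRS3 fell. Of all 14013 genes tested in this line 54.7% were called, 26.9% higher and 27.8% lower, so 5 of 8 is close to the share over all genes. In NGP 8 were tested and 6 called: RXRA and CRABP2 rose, and RARB, CRABP1, DHRS3 and CYP26B1 fell. The share over all 13610 genes in NGP was 41.7%, with 19.4% higher and 22.2% lower. The median log2 fold change of the tested members was -0.38 in SK-N-BE2 and -0.43 in NGP, against -0.02 and -0.03 over all genes. Fewer cells that express a gene and less RNA of it per cell cannot be told apart in these bulk libraries. All these calls come from edgeR's quasi-likelihood test with Benjamini-Hochberg adjustment over all genes tested in the line.

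**Figure D1:**
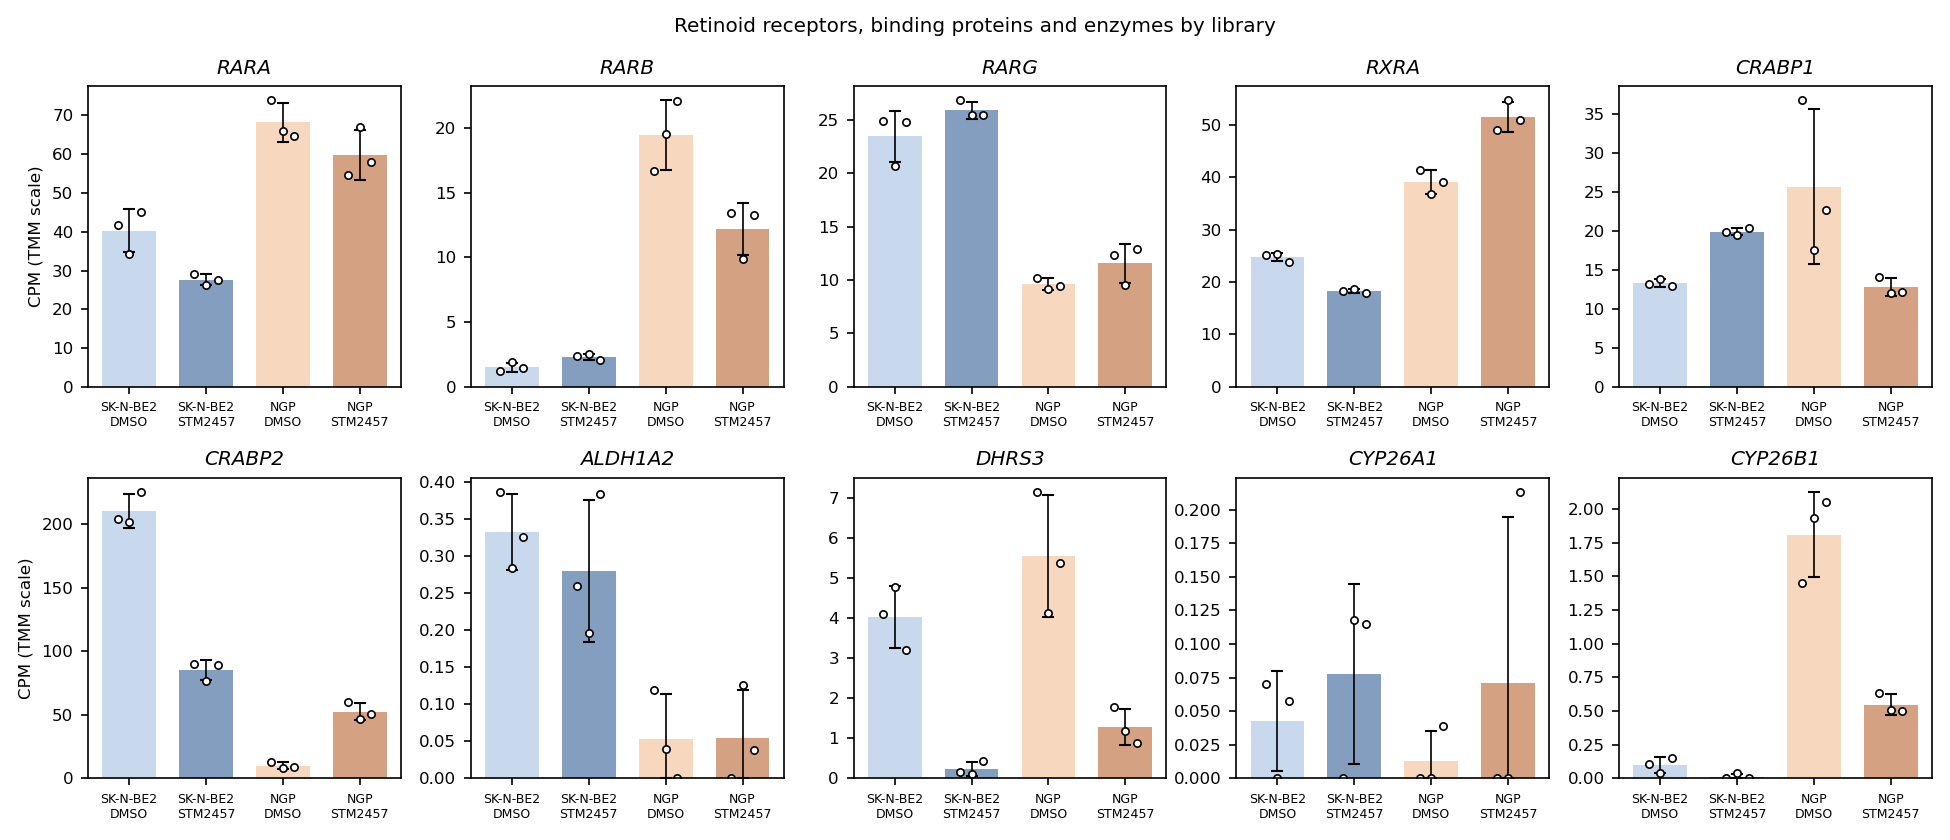
Level of each gene in CPM (read counts scaled to library size, on the TMM scale of all 12 libraries), with each panel on its own axis from 0. Bars are means of 3 replicates, error bars are SD (drawn no lower than 0) and circles are libraries in the order of replicates 1 to 3; DHRS3 is lower with STM2457 in both lines, while CRABP2 falls in SK-N-BE2 and rises in NGP.

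Among the receptors, RARA is the most widely expressed retinoic acid receptor. In SK-N-BE2 it measured 41.6, 34.2 and 45.0 CPM in the controls and 29.0, 26.2 and 27.5 CPM after STM2457. The treated libraries all lay below the controls, by -0.58 on the log2 scale (SE 0.11, edgeR adjusted p 0.000450). In NGP, RARA measured 73.9, 66.0 and 64.7 CPM in the controls and 54.5, 67.0 and 57.9 CPM after STM2457. There the groups overlapped, because treated replicate 2 lay above control replicates 2 and 3, and the gene was not called (log2 fold change -0.19, SE 0.12, edgeR adjusted p 0.225). The difference between the lines, -0.38 (SE 0.16), was not called, with an edgeR adjusted p of 0.0904, and was called without SK-N-BE2 DMSO replicate 2 (0.0195) or without NGP DMSO replicate 1 (0.0206). RARA lies on chromosome 17 (40309180 to 40357643, plus strand, GRCh38). Genes on the other strand, RARA-AS1 among them, overlap 21.4% of its exon length and no strand option was set in counting, so its values are uncertain.

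RARB, the receptor gene with the DR5 printed above, was a low transcript in SK-N-BE2 and a clear one in NGP. In NGP it measured 16.7, 19.6 and 22.1 CPM in the controls and 13.4, 9.88 and 13.2 CPM after STM2457. All 3 treated libraries lay below all 3 controls, and the gene fell by 0.67 on the log2 scale (SE 0.16, edgeR adjusted p 0.0115). The SK-N-BE2 libraries held 1.23, 1.91 and 1.44 CPM in the controls and 2.35, 2.55 and 2.03 CPM after STM2457. These groups did not overlap either, with the treated libraries higher, but the gene was not called (log2 fold change 0.57, SE 0.24, edgeR adjusted p 0.0604). Without DMSO replicate 2, its highest control, it was called at 0.76 (edgeR adjusted p 0.0191). The responses of the lines differed by 1.25 on the log2 scale (SE 0.26, edgeR adjusted p 0.00253). RARB lies on chromosome 3 (25174332 to 25597932, plus strand), with no exon of another gene over its exons.

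RARG, another retinoic acid receptor, was called in neither line. SK-N-BE2 cells held 24.9, 20.6 and 24.8 CPM in the controls and 26.8, 25.4 and 25.4 CPM after STM2457. Although no treated library lay below a control, the log2 fold change came to 0.11 (SE 0.10, edgeR adjusted p 0.385). NGP cells held 10.2, 9.11 and 9.47 CPM in the controls and 12.3, 9.50 and 12.9 CPM after STM2457. Treated replicate 2 lay among the controls, and the log2 fold change came to 0.27 (SE 0.15, edgeR adjusted p 0.185). RARG lies on chromosome 12 (53210567 to 53232980, minus strand).

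RXRA, the partner with which RAR receptors bind DNA, moved in opposite directions. In SK-N-BE2 it measured 25.2, 25.4 and 23.9 CPM in the controls and 18.3, 18.6 and 18.0 CPM after STM2457. The replicates were tight and apart, and the gene fell by 0.48 on the log2 scale (SE 0.09, edgeR adjusted p 0.000635). In NGP it measured 41.4, 36.8 and 39.1 CPM in the controls and 49.0, 54.7 and 50.9 CPM after STM2457. Every treated library lay above every control, and the gene rose by 0.40 (SE 0.10, edgeR adjusted p 0.0139). In NGP it was no longer called without DMSO replicate 3 (edgeR adjusted p 0.0520), without STM2457 replicate 3 (0.0577), and when the trend of each library with exon length was removed (0.112). The difference between the lines was -0.86 (SE 0.12, edgeR adjusted p 0.000163). RXRA lies on chromosome 9 (134317098 to 134440585, plus strand).

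Levels of different genes were compared per length, in TPM (transcript units corrected for exon length) within a group, and described without a test. In control SK-N-BE2 cells RARA supplied 62.9 ± 1.56% of the summed TPM of RARA, RARB and RARG, RARG 33.9 ± 0.99% and RARB 3.14 ± 1.09% (SD, n = 3). With STM2457 these shares were 50.6 ± 1.00%, 43.95 ± 0.39% and 5.44 ± 0.67%. The RARA share was lower and the RARG share higher in every treated library than in every control. In control NGP cells RARA supplied 66.8 ± 3.51%, RARB 24.5 ± 3.75% and RARG 8.70 ± 0.29%, so the second receptor was RARB there and not RARG. With STM2457 the NGP shares were 69.3 ± 5.56%, 18.2 ± 3.39% and 12.5 ± 2.19%. The RARG share was again higher in every treated library, while the RARA and RARB shares overlapped between the groups. The summed TPM of the 3 genes in NGP was 88.3 ± 7.15 with DMSO and 65.4 ± 2.81 with STM2457. RARG itself, called in neither line, was at 7.67 and 8.13 TPM there. In SK-N-BE2 the sum was 41.0 ± 4.22 and 38.0 ± 2.39 TPM.

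**Figure D2:**
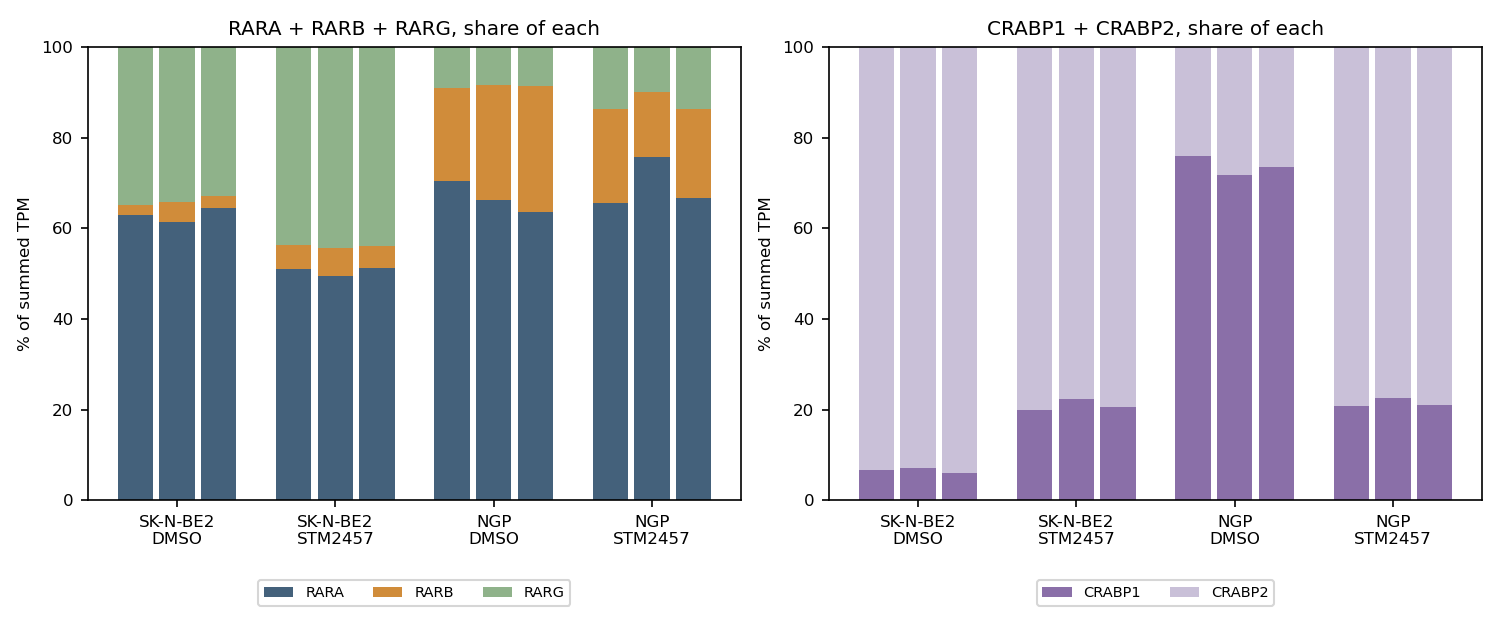
Share of each gene in the summed TPM (%) of the 3 retinoic acid receptors (left) and of the 2 binding proteins (right), 1 bar per library, replicates 1 to 3 in order within a group. RARG gains share with STM2457 in both lines, though its own level was called in neither. CRABP2 supplies 26.3% of the CRABP pool in control NGP cells against 78.4% with STM2457.

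The binding proteins moved in opposite directions in the 2 lines. CRABP2, which hands retinoic acid to receptors in the nucleus, measured 204, 202 and 225 CPM in SK-N-BE2 with DMSO and 90.2, 76.4 and 88.9 CPM with STM2457. The groups lay far apart, and CRABP2 fell by 1.34 on the log2 scale (2.53-fold, SE 0.09, edgeR adjusted p 8.46e-08). In NGP it measured 13.1, 7.81 and 9.20 CPM in the controls and 60.2, 46.4 and 50.9 CPM after STM2457. The treated libraries were all far above the controls, and CRABP2 rose by 2.39 (5.24-fold, SE 0.20, edgeR adjusted p 6.64e-05). The difference between the responses, -3.72 on the log2 scale (SE 0.23), had an edgeR adjusted p of 1.42e-07, the smallest among the members. Without NGP DMSO replicate 1, the highest control, the NGP rise was 2.63 (edgeR adjusted p 7.01e-07). CRABP2 lies on chromosome 1 (156699606 to 156705816, minus strand), clear of exons of other genes.

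CRABP1, a binding protein linked to the breakdown of retinoic acid, moved the other way in each line. Its level in SK-N-BE2 was 13.1, 13.9 and 12.9 CPM in the controls and 19.9, 19.4 and 20.3 CPM after STM2457. The groups were tight and apart, and CRABP1 rose by 0.55 on the log2 scale (SE 0.10, edgeR adjusted p 0.000363). Its level in NGP was 36.7, 17.6 and 22.7 CPM in the controls and 14.1, 12.1 and 12.1 CPM after STM2457. All treated libraries lay below the controls, but control replicate 1 was far above the other controls. With it CRABP1 fell by 1.01 (SE 0.25, edgeR adjusted p 0.0120), without it by 0.66 (edgeR adjusted p 0.00226), and without STM2457 replicate 2 the call was lost (edgeR adjusted p 0.0546). The difference between the lines was 1.56 (SE 0.28, edgeR adjusted p 0.000875), and 1.19 without NGP DMSO replicate 1. CRABP1 lies on chromosome 15 (78340353 to 78348225, plus strand). A gene on the other strand covers 45.9% of its exon length, so without strand its reads cannot be told apart from that gene's.

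On the TPM scale CRABP2 was the highest of the 10 genes in control SK-N-BE2 cells at 591 ± 33.7 TPM, at percentile 99.2 of all genes, and CRABP1 came next at 42.2 ± 2.13 TPM (SD, n = 3). In control NGP cells the order was turned: CRABP1 led at 107 ± 29.2 TPM and CRABP2 stood behind RARA at 37.4 ± 6.04 TPM. CRABP2 supplied 93.3 ± 0.58% of the summed TPM of both in control SK-N-BE2 cells and 26.3 ± 2.12% in control NGP cells. With STM2457 its share was 79.1 ± 1.22% in SK-N-BE2 and 78.4 ± 0.97% in NGP. Ranges of the treated groups overlapped, from 77.7% to 80.1% and from 77.3% to 79.1%. The summed TPM of both was 328 ± 19.6 and 222 ± 25.0.

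**Figure D3:**
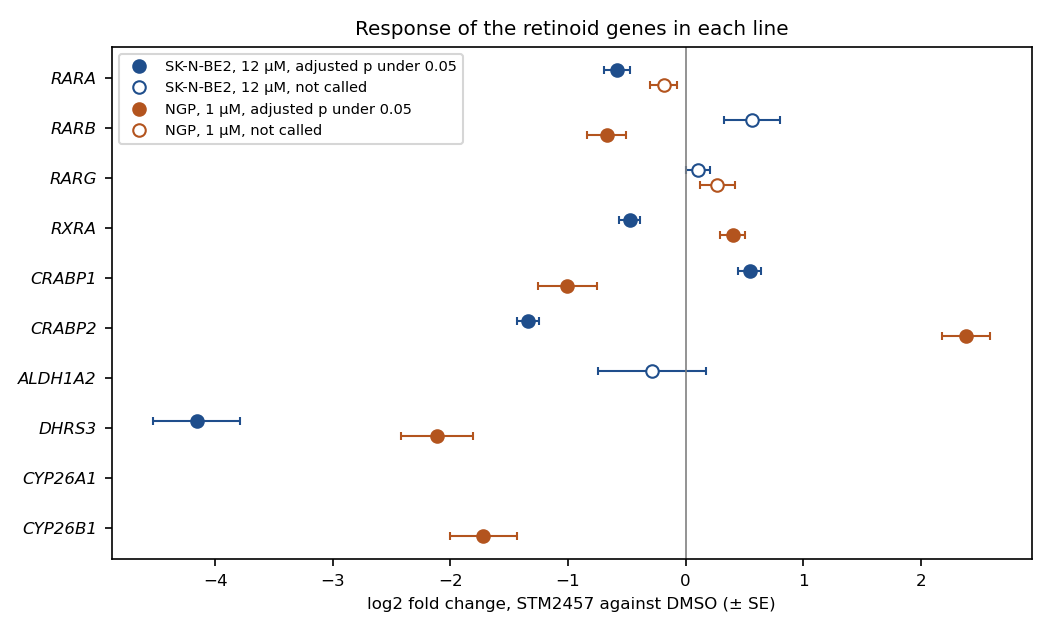
Log2 fold change of STM2457 against DMSO with its SE for each gene with enough reads to test, in SK-N-BE2 (blue) and NGP (brown), filled where the edgeR adjusted p is under 0.05. RXRA, CRABP1 and CRABP2 lie on opposite sides of 0 in the 2 lines, and DHRS3 lies below 0 in both.

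DHRS3 was the only member called lower in both line fits. CYP26B1, described below, was called lower in NGP and had too few reads for the SK-N-BE2 fit. DHRS3 encodes the enzyme that reduces retinal back to retinol, which keeps retinoic acid synthesis down. Its SK-N-BE2 libraries held 4.11, 4.77 and 3.22 CPM in the controls and 0.148, 0.118 and 0.422 CPM after STM2457, from 637 reads in the controls and 36 in the treated libraries. All 3 treated libraries lay far below all 3 controls, and the fall was 4.16 on the log2 scale (17.9-fold, SE 0.37, edgeR adjusted p 9.67e-07). Without STM2457 replicate 3, the highest treated library, the fall was 4.93. Its NGP libraries held 7.16, 4.14 and 5.37 CPM in the controls and 1.78, 1.18 and 0.892 CPM after STM2457. Again no treated library reached a control, and the fall was 2.11 (4.33-fold, SE 0.31, edgeR adjusted p 0.000978), or 1.89 without NGP DMSO replicate 1. The fall was larger in SK-N-BE2, with a difference of -2.03 (SE 0.54, edgeR adjusted p 0.0108), or -2.80 without SK-N-BE2 STM2457 replicate 3. DHRS3 lies on chromosome 1 (12567910 to 12618210, minus strand), with no exon of another gene over its exons.

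ALDH1A2, which makes retinoic acid from retinal, was barely expressed. In SK-N-BE2 it measured 0.387, 0.284 and 0.326 CPM in the controls and 0.259, 0.196 and 0.384 CPM after STM2457. The groups overlapped and it was not called (log2 fold change -0.29, SE 0.46, edgeR adjusted p 0.620). In NGP it had 8 reads over the 3 control libraries and 8 over the 3 treated ones, too few to test. ALDH1A2 lies on chromosome 15 (57953424 to 58497866, minus strand).

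The CYP26 enzymes clear retinoic acid. CYP26B1 measured 1.45, 1.93 and 2.05 CPM in NGP with DMSO and 0.635, 0.505 and 0.504 CPM with STM2457. Every treated library lay under every control, and the gene fell by 1.72 on the log2 scale (3.29-fold, SE 0.28, edgeR adjusted p 0.00182). There were 16 reads over the SK-N-BE2 controls and 2 over the treated libraries, too few for the fit of that line. At equal depth the ratio was 7.83 (exact 95% Poisson interval 1.84 to 70.2, counting error only). Read pairs mostly add 2 to a count, so this interval is too narrow. By replicate, the SK-N-BE2 counts were 6, 2 and 8 reads with DMSO and 0, 2 and 0 with STM2457. Replicate 2 held 2 reads in both groups. Its CPM was lower with STM2457 (0.0392 against 0.0406) only through scaling to library size, so the groups were not clearly apart. In the joint fit of all 12 libraries CYP26B1 was called lower in SK-N-BE2 too (log2 fold change -2.76, SE 0.90, edgeR adjusted p 0.0226), but not in the SK-N-BE2 fit with no filter on low counts (edgeR adjusted p 0.11) or by DESeq2 (adjusted p 0.15). The difference between the lines, fitted over all 12 libraries, was -1.07 (SE 0.96, edgeR adjusted p 0.434), which the few SK-N-BE2 reads leave wide. CYP26B1 lies on chromosome 2 (72129238 to 72148038, minus strand).

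CYP26A1, the gene with the other DR5 printed above and the classic target of retinoic acid, was near the limit of detection. In SK-N-BE2 it had 4, 0 and 3 reads with DMSO and 0, 6 and 6 with STM2457, and in NGP 0, 0 and 2 reads with DMSO and 0, 0 and 11 with STM2457. All 11 treated NGP reads came from a single library. If each read counted alone, a count of 0 would allow up to 3 reads, which correspond to between 0.0516 and 0.0635 CPM in these libraries. Read pairs mostly add 2 to a count here, so this limit is too low. The ratio of DMSO to STM2457 reads at equal depth was 0.571 in SK-N-BE2 (exact 95% Poisson interval 0.190 to 1.57) and 0.178 in NGP (0.0192 to 0.817). The NGP interval lies below 1, but it covers counting error only. Because read pairs mostly add 2 to a count, both intervals are too narrow, and the NGP one does not settle whether the ratio is below 1. The replicates overlapped in both lines, and a fit with no filter on low counts made no call, at an edgeR adjusted p of 0.652 for SK-N-BE2 and 0.376 for NGP. CYP26A1 lies on chromosome 10 (93073475 to 93077885, plus strand), and a gene on the same strand shares 25.3% of its exon length, so its reads are uncertain.

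In control SK-N-BE2 cells the order of levels on the TPM scale went on, after CRABP2 and CRABP1, with RARA at 25.8, RARG at 13.9, RXRA at 6.25, DHRS3 at 3.49 and RARB at 1.26 TPM, each range apart from the next. ALDH1A2, CYP26B1 and CYP26A1 followed at 0.124, 0.0603 and 0.0434 TPM, and the ranges of the last pair overlapped. In control NGP cells, after CRABP1, RARA and CRABP2, came RARB at 21.8, RXRA at 13.3, RARG at 7.67, DHRS3 at 6.38 and CYP26B1 at 1.502 TPM, and the ranges of RARG and DHRS3 overlapped. ALDH1A2 and CYP26A1 were last, at 0.0249 and 0.0188 TPM.

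The genes of the pathway also differed in level between the control libraries of the lines. With DMSO, 8 of 9 tested members differed, 3 higher and 5 lower in SK-N-BE2, where 71.1% of all 14731 genes did, 35.7% higher and 35.4% lower. CRABP2 was the higher in SK-N-BE2, with a log2 difference of 4.39 (SE 0.18, edgeR adjusted p 3.17e-11). RARG and ALDH1A2 were higher by 1.29 and 2.61 (edgeR adjusted p 5.14e-07 and 0.00992), the latter at very low levels. RARB and CYP26B1 were lower by -3.68 and -4.14 (edgeR adjusted p 5.99e-10 and 2.91e-06). RARA, RXRA and CRABP1 had smaller differences, of -0.76, -0.66 and -0.95 (edgeR adjusted p 3.92e-05, 1.07e-05 and 0.000646). Without NGP DMSO replicate 1 the difference was -0.57 for CRABP1 and 3.95 for ALDH1A2. DHRS3, with -0.46 (SE 0.32), was not called (edgeR adjusted p 0.200).

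The response differed between the lines for 5 of the 9 tested members, RARB and CRABP1 with the higher value in SK-N-BE2 and RXRA, CRABP2 and DHRS3 with the lower. Over all 14731 genes 30.9% were called in this contrast, 17% higher and 13.9% lower. Of the members, 4 were called in both line fits, DHRS3 in the same direction and RXRA, CRABP1 and CRABP2 in opposite ones. Among 12952 genes tested in both lines, 3406 were called in both, 2763 in the same direction and 643 in opposite ones. Replicates of the 2 treatments did not overlap for 7 of the 8 tested members in SK-N-BE2 and for 6 of 8 in NGP, while over all genes tested this held for 62.2% in SK-N-BE2 and 54.7% in NGP. Dose also differed between the lines, 12 µM against 1 µM, and cannot be told apart from the line.

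A wider list of 52 genes of retinol handling, RAR and RXR cofactors and known retinoic acid targets was read against the members. In SK-N-BE2, 22 of 39 tested genes were called, 7 higher and 15 lower, and in NGP 13 of 38, 8 higher and 5 lower. Both shares lie near those over all genes (54.7% and 41.7%). The count in SK-N-BE2 was 14 without STM2457 replicate 3, and that in NGP was 25 without DMSO replicate 1. The median log2 fold change of the list was -0.16 in SK-N-BE2 and 0.06 in NGP.

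Of 6 genes of retinol uptake and storage, 3 were tested, and these 3 were called lower in SK-N-BE2, where 27.8% of all genes were. None of the 3 was called in NGP, where 41.7% of all genes tested were. STRA6, the membrane receptor that takes up retinol, was at 324 ± 3.004 CPM in SK-N-BE2 controls and at 149 ± 4.06 CPM after STM2457 (SD, n = 3). Its log2 fold change was -1.15 (edgeR adjusted p 8.13e-08), while in NGP it measured 130 ± 18.6 and 151 ± 3.13 CPM. DGAT1, which can esterify retinol, fell by 0.27 in SK-N-BE2 (edgeR adjusted p 0.0291), a call lost in 4 of 14 alternative fits, among them those without DMSO replicate 3, STM2457 replicate 1 or STM2457 replicate 2. Genes on its own strand share 10.9% of its exon length. Without NGP DMSO replicate 1, both were called higher in NGP, by 0.32 for STRA6 and 0.51 for DGAT1 (edgeR adjusted p 0.00642 and 0.00348). The difference between the lines was -1.36 for STRA6 (edgeR adjusted p 6.87e-06).

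The enzymes that oxidise and reduce retinol and retinal were mixed, with 4 of 8 called in SK-N-BE2 (1 higher, 3 lower) and 4 of 9 in NGP (3 higher, 1 lower). Both totals lie near the shares over all genes tested. These were 54.7% in SK-N-BE2 (26.9% higher, 27.8% lower) and 41.7% in NGP (19.4% higher, 22.2% lower). RDH14, a retinol dehydrogenase, fell by 0.91 on the log2 scale in SK-N-BE2 (edgeR adjusted p 3.76e-05), from 51.7 ± 9.73 to 28.2 ± 0.34 CPM, and measured 13.4 ± 2.46 and 13.4 ± 1.00 CPM in NGP. ALDH1A3, which like ALDH1A2 makes retinoic acid, rose in NGP from 18.4 ± 2.098 to 31.8 ± 0.94 CPM (log2 fold change 0.80, edgeR adjusted p 0.00118). The gene fell by 0.43 in SK-N-BE2 (edgeR adjusted p 0.0323), a call lost without DMSO replicate 1, STM2457 replicate 1 or STM2457 replicate 3 and in the joint fit. The difference of -1.21 between the lines was called (edgeR adjusted p 0.000771). Genes on the other strand cover 32.1% of the ALDH1A3 exon length, and RDH14 shares 16.6% with a read-through gene on its own strand, so both are uncertain. ALDH1A1 had 24 reads in the NGP controls and 116 in the treated libraries, and 0 in all 6 SK-N-BE2 libraries. ALDH1A1 is named here after its value was seen. DHRS4, a carbonyl reductase that acts on retinal, fell in both lines, by 0.41 and 0.94 (edgeR adjusted p 0.0103 and 0.0234). The DHRS4 call in SK-N-BE2 was lost without STM2457 replicate 3, in the joint fit and with the exon length trend removed. The call in NGP was lost without DMSO replicate 2, STM2457 replicate 1 or STM2457 replicate 2. An antisense gene covers 11.2% of the DHRS4 exons. RDH11 rose by 0.32 in SK-N-BE2 (edgeR adjusted p 0.0133) and ADH5 by 0.36 in NGP (edgeR adjusted p 0.0123). The call of RDH11 was lost without DMSO replicate 3 or STM2457 replicate 2 or 3, and that of ADH5 without STM2457 replicate 1 or 3.

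**Figure D4:**
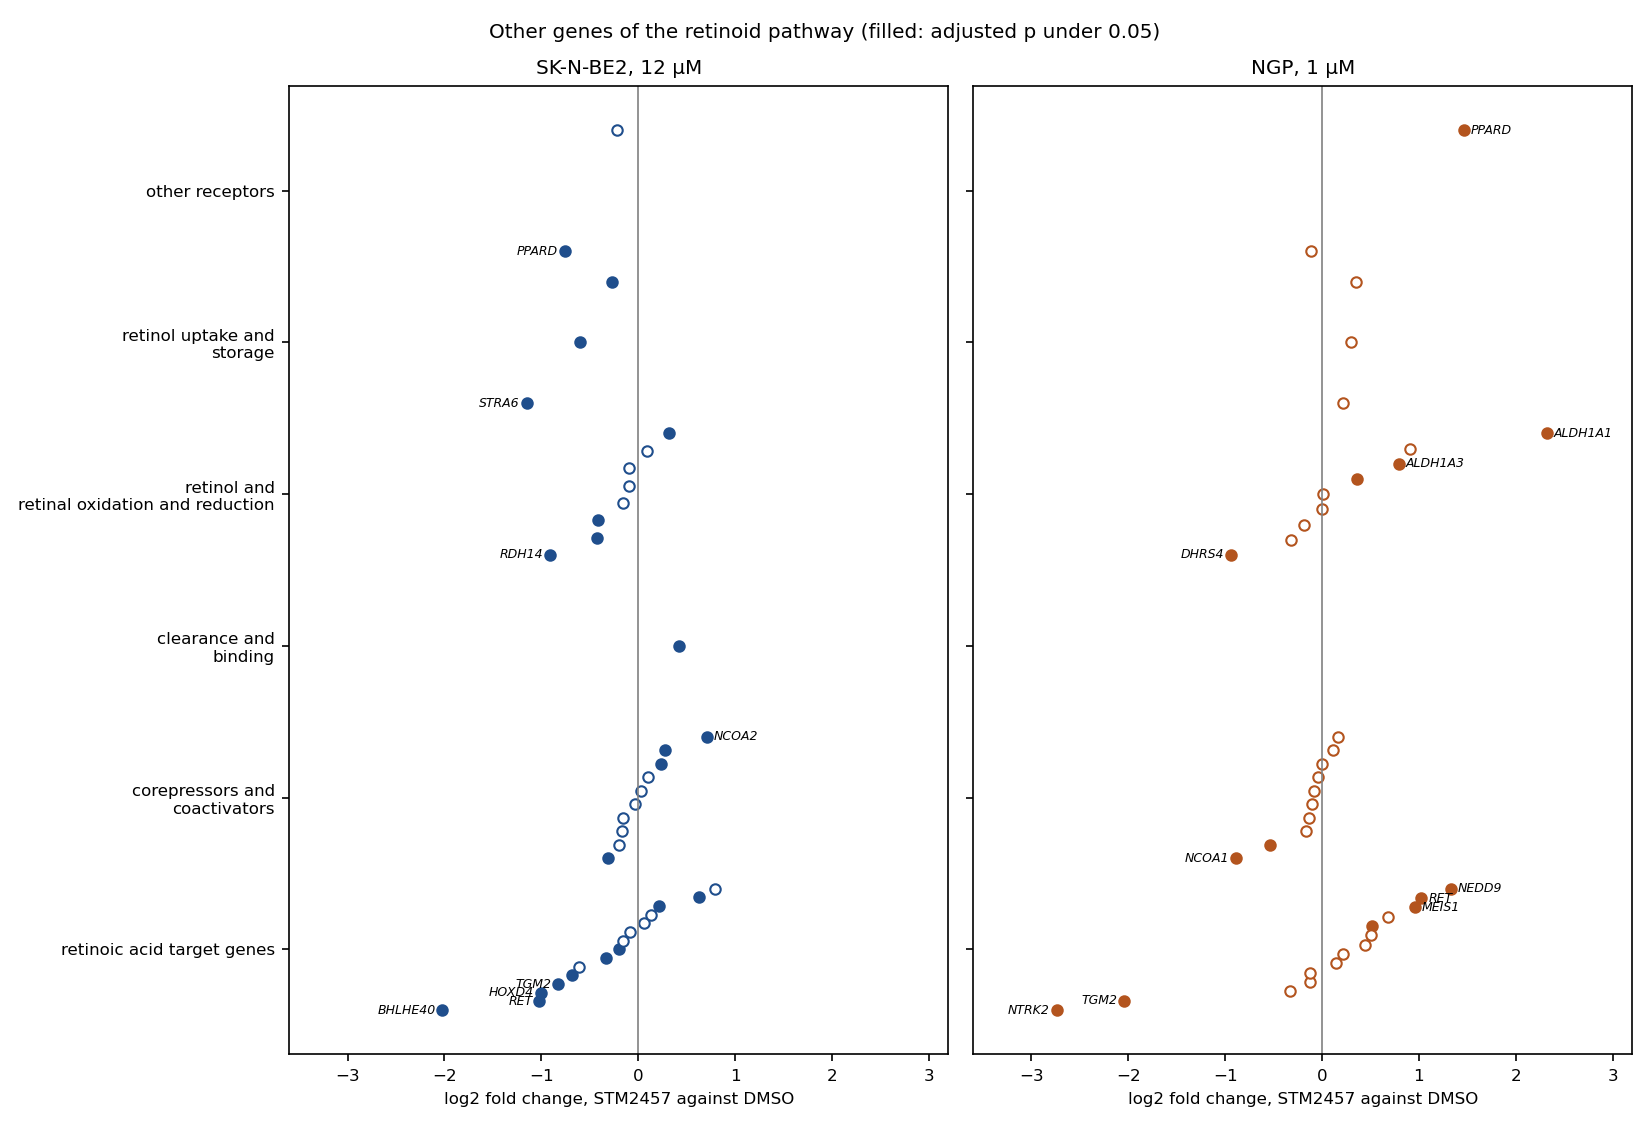
Log2 fold change of STM2457 against DMSO for the tested genes of the wider retinoid list, grouped by role, in SK-N-BE2 (left) and NGP (right). Filled circles have an edgeR adjusted p under 0.05, and called genes beyond 0.7 in either direction are named; PPARD and RET lie on opposite sides of 0 in the 2 lines.

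Of 3 other receptors, 2 were tested and PPARD was called in each line, as were 54.7% of all genes tested in SK-N-BE2 and 41.7% in NGP. PPARD, a nuclear receptor that pairs with RXR and can be reached by retinoic acid through FABP5, fell in SK-N-BE2 from 51.8 ± 5.46 to 31.5 ± 0.71 CPM (log2 fold change -0.76, edgeR adjusted p 1.95e-05). In NGP it rose from 14.5 ± 1.06 to 39.9 ± 0.73 CPM (1.46, edgeR adjusted p 3.58e-05), and the difference between the lines was -2.21 (edgeR adjusted p 2.19e-07). FABP5 rose by 0.43 in SK-N-BE2 (edgeR adjusted p 0.00145) and had 2 reads in the NGP controls and 0 in the treated NGP libraries. FABP5 has processed pseudogenes, and its level is uncertain for that reason.

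Of 10 corepressors and coactivators, 4 were called in SK-N-BE2, 3 higher and 1 lower, and 2 in NGP, both lower. The shares over all genes tested were 54.7% in SK-N-BE2 and 41.7% in NGP. NCOA2, a coactivator of nuclear receptors, rose by 0.71 on the log2 scale in SK-N-BE2 (37.5 ± 5.25 to 63.1 ± 2.85 CPM, edgeR adjusted p 5.80e-05). NCOA1 fell in both lines, by 0.31 and 0.89 (edgeR adjusted p 0.0143 and 0.00596), with the SK-N-BE2 call lost without STM2457 replicate 1 or 3 and in the joint fit. The corepressor NCOR1 rose by 0.27 in SK-N-BE2 (edgeR adjusted p 0.0117, not called without STM2457 replicate 2). NRIP1 rose by 0.24 in SK-N-BE2 (edgeR adjusted p 0.0305), and its call was kept only in the fit without DMSO replicate 1 among those leaving out a library. The NRIP1 call was also lost in the joint fit and with the exon length trend removed. Without NGP DMSO replicate 1, NCOA2 and NRIP1 were called lower in NGP.

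Of 20 known retinoic acid targets, 9 of 15 tested were called in SK-N-BE2, 2 higher and 7 lower. In NGP 6 of 14 were, 4 higher and 2 lower. Neither total stands out from the background of all genes, at 54.7% (SK-N-BE2) and 41.7% (NGP). By direction this background was 26.9% higher and 27.8% lower in SK-N-BE2, against 19.4% and 22.2% in NGP. Whether the targets depart from it was not tested. RET, the receptor of GDNF-family ligands, fell in SK-N-BE2 from 792 ± 24.5 to 401 ± 14.6 CPM and rose in NGP from 92.1 ± 22.6 to 187 ± 3.52 CPM. Its log2 fold changes were -1.02 and 1.03 (edgeR adjusted p 5.53e-07 and 0.00164), and they differed by -2.03 (edgeR adjusted p 3.78e-06). BHLHE40, a transcriptional repressor, fell in SK-N-BE2 from 20.5 ± 1.18 to 5.16 ± 0.56 CPM (-2.02, edgeR adjusted p 2.63e-08), and an antisense gene covers 12.8% of its exons. BHLHE40 was not called in NGP (log2 fold change 0.44, edgeR adjusted p 0.0511), but was called there in 7 of 14 alternative fits, among them that without DMSO replicate 1. NTRK2, the receptor of BDNF, fell in NGP from 34.9 ± 8.89 to 5.22 ± 0.87 CPM (-2.74, edgeR adjusted p 5.15e-05), and was under 1 CPM in SK-N-BE2. MEIS1, a homeobox gene, rose in both lines, by 0.63 and 0.96 (edgeR adjusted p 6.38e-05 and 0.000124), and antisense genes cover 13.3% of its exons. TGM2, a transglutaminase, fell in both, by 0.82 and 2.05 (edgeR adjusted p 0.00208 and 0.00294), the SK-N-BE2 value being given after it was seen. TGM2 levels were low, from 3.73 ± 0.15 to 2.16 ± 0.27 CPM in SK-N-BE2. In NGP they went from 1.31 ± 0.35 to 0.316 ± 0.096 CPM, on 200 reads in the controls and 46 after STM2457. NEDD9, a scaffold protein, fell by 0.68 in SK-N-BE2 (edgeR adjusted p 0.00394), a value given after it was seen and called in all 14 alternative fits. In NGP it rose by 1.33 (edgeR adjusted p 0.0134), a call lost without STM2457 replicate 3, and the difference between the lines was -2.00 (edgeR adjusted p 0.000938). HOXD4 fell by 1.00 in SK-N-BE2 (edgeR adjusted p 0.000479), and ZNF423, a cofactor of RAR and RXR in neuroblastoma, rose there by 0.22 (edgeR adjusted p 0.0403). The ZNF423 call was lost without DMSO replicate 2 or any single STM2457 replicate, and with the exon length trend removed.

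The genes most like CRABP2 across the 12 libraries were sought among 13320 genes by the root mean square difference of log2 CPM, each gene centred on its own mean. The closest were MSX2 (0.20), KDR (0.27) and BMP5 (0.39). MSX2, a homeobox gene, measured 17.7 and 8.43 CPM with DMSO and STM2457 in SK-N-BE2, and 0.434 and 4.28 CPM in NGP (means of 3). KDR, a VEGF receptor, measured 9.39 and 3.996 CPM, then 0.118 and 2.36 CPM. BMP5, a secreted growth factor, measured 7.78 and 6.17 CPM, then 0.0527 and 2.24 CPM. These genes were picked for this likeness, so their shared pattern is no separate result. The BMP5 level in control NGP cells lies under that of 3 reads (0.0585 to 0.0625 CPM there).

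The motif GGACT, a common core of METTL3 sites, was counted in the main transcript of each member, a choice made after the values were seen. CRABP2 held 2 copies in 974 bases, or 2.05 per kb, and CRABP1 held 0 in 738 bases. The median over 20046 transcripts was 0.925 per kb. DHRS3 (1.82), ALDH1A2 (1.77), RARB (1.60), CYP26A1 (1.42) and RARG (1.03) also lay above it, and RARA (0.916), CYP26B1 (0.878) and RXRA (0.722) lay below. Members called in at least 1 line stood on both sides of the median. Methylation of these transcripts was not measured here.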

How the data were processed

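Poly(A) RNA libraries of 12 samples were grouped by the line and treatment in their labels. The authors deposited whole-number counts of reads per gene, not normalized, for 19923 genes. Per the file headers, these were made by featureCounts 2.0.5 over the exons of protein-coding GENCODE 33 genes, paired mode on and no strand option set. Per the submitters' processing notes, FastQC 0.11.5, Trimmomatic 0.36, HISAT2 2.1.0 and Subread 1.5.3 were used with GRCh38, and this Subread version differs from that in the headers. Even numbers made up 72.1% to 75.4% of the counts from 1 to 20, so read pairs mostly add 2 to a count, and counting intervals are too narrow.

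The 6 libraries of a line were tested together by the quasi-likelihood method of edgeR 4.0.16 (R 4.3.3), after filterByExpr at a minimum count of 10 and scaling by TMM. P-values were adjusted by Benjamini-Hochberg over all genes tested, and 0.05 was the threshold. The difference between responses and the difference between control groups were contrasts of 4 group means over 12 libraries. The SE is the size of the log2 fold change over the root of F. TPM used the deposited exon lengths. The scripts were tested on simulated data. Alternatives were DESeq2 size factors, no filter on counts, a filter at a mean of 1 CPM, a replicate block, the DESeq2 1.42.0 Wald test, halved counts, a joint fit and leaving out each library. Removal of each library's exon length trend in 20 bins was added after seeing the data.

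The members and lists were chosen with earlier results of these data known. All members are named. From each role of the wider list, up to 3 called genes with the largest rise and 3 with the largest fall per line are named where the higher group averaged at least 1 CPM. Some genes that met this rule are not reported here. Gene positions were taken from the deposited files (GRCh38), and overlaps were read from GENCODE 44. Depth was 47242379 to 58159937 reads, so counting error is small except for genes of a few reads, and 3 replicates limit the rest.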

Additional observations from a re-analysis of the deposited data

Results flagged for a closer look

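The following responses differed between the lines in the edgeR test of the difference itself, given as SK-N-BE2 minus NGP on the log2 scale. Line, dose and any batch that goes with the line cannot be told apart in any of them. Among the members, the difference was 1.25 for RARB, -0.86 for RXRA, 1.56 for CRABP1, -3.72 for CRABP2 and -2.03 for DHRS3.

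Among receptors and retinol handling in the wider list it was -2.21 for PPARD, -1.36 for STRA6, -0.90 for RDH14 and -1.21 for ALDH1A3. For the coactivator NCOA2 it was 0.83, not called without SK-N-BE2 DMSO replicate 2 or 3 or NGP DMSO replicate 3. Among known retinoic acid targets it was -2.03 for RET, 2.82 for NTRK2, -2.00 for NEDD9 and -2.45 for BHLHE40. It was -0.87 for HOXD4, a call lost in 9 of 19 alternative fits, with an edgeR adjusted p of up to 0.137. It was 1.24 for TGM2, a call lost in 5 of 19, with an edgeR adjusted p of up to 0.0703.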

How the results depend on the processing

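The numbers of called members stayed within 1.5 times their main value in every alternative run: from 5 to 7 in SK-N-BE2, 5 to 6 in NGP, 5 to 6 for the difference between responses and 7 to 8 between control groups. No member changed direction while called. The count of the wider list in SK-N-BE2 was 14 in the joint fit of all 12 libraries and ran from 14 to 22 when a library was left out, and in NGP it ran from 9 to 25. The cause was not tested. The 7 members of SK-N-BE2 were those of the joint fit, which added RARB (edgeR adjusted p 0.0236) and CYP26B1 (0.0226). RARB was also called with the exon length trend removed (0.0410). Replicate numbers did not pair the samples, since same-numbered libraries had correlations from -0.21 to 0.15 in their deviations. With the replicate block, 5 members were called in SK-N-BE2, 6 in NGP, 5 for the difference between responses and 8 between control groups, and 20, 12, 13 and 29 genes of the wider list. The block ended the calls of ZNF423 in SK-N-BE2 (edgeR adjusted p 0.0520) and DHRS4 in NGP (0.0554). For the difference between responses it ended that of TGM2 (0.0677) and added one for DGAT1 (0.0368). Over all genes the block gave 7522, 5026, 4025 and 10233 calls. Depth limits CYP26A1, ALDH1A2 in NGP and CYP26B1 in SK-N-BE2, each with 16 reads or fewer in a group.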
